A study of Mus musculus with 8 samples.

Results

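The proteins of the mitochondrial ribosome were followed as transcripts in CD8+ T cells of C57BL/6 mice with and without ASC, the inflammasome adaptor encoded by Pycard. Members were all probes of the array whose annotated gene symbol is Mrpl or Mrps followed by a number, which gave 110 of 25697 probes. These probes stood for 76 of the 16593 genes named on the array, 47 named for the large subunit and 29 for the small subunit. A probe was tested where its detection p-value was under 0.05 on at least 4 of the 8 arrays. That left 97 member probes of 70 genes, 43 of the large and 27 of the small subunit.

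The study hybridised 8 samples to Illumina MouseRef-8 v2.0 single-colour bead arrays, 4 from wild type mice and 4 from ASC knockout mice, all labelled C57BL/6. The labels give no stimulation, age, sex, pooling or array position. They do not say whether replicates came from separate animals, so the spread behind each p-value may be technical. The knockout was checked at Pycard itself, whose probe gave a wild type signal of 500.1 ± 19.0 and a knockout signal of 121.5 ± 2.57 (SD, n = 4 arrays each). Every wild type array detected it and no knockout array did, so the knockout signal was not above background (limma, adjusted p = 1.15e-09). Cd8b1, a CD8 T cell gene, and the general T cell genes Cd3d, Cd3e, Cd3g and Cd2 were detected on all 8 arrays. The Cd8a probe was detected on none. The median signal over all probes lay between 127.9 and 133.8 on every array. The share of probes detected was 42.8% to 44.5% on wild type arrays and 44.9% to 45.4% on knockout arrays, without overlap. Its part in the values below was not tested.

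The mitochondrial ribosome translates the few proteins encoded by mitochondrial DNA, all of them core subunits of the respiratory chain and ATP synthase. Its own proteins are encoded in the nucleus, made in the cytosol and imported, and they assemble on ribosomal RNA into a small subunit, which decodes the messenger RNA, and a large subunit, which joins the amino acids. In T cells, activation is known to raise mitochondrial mass and translation, and cytotoxic effector function depends on mitochondrial protein synthesis.

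Nuclear genes for mitochondrial proteins are often controlled by NRF1, by GABP of the ETS family and by YY1. RefSeq promoter sequences of assembly GRCm38.p6, 300 bases long with 250 before and 50 after a transcription start, were matched for 67 of the 76 genes, with 73 promoters in all. Exact matches on either strand were counted for an NRF1 core (GCGCATGCG), an ETS core (CCGGAAG) and a YY1 core (AAGATGGCG), of which the ETS and YY1 cores can share 3 letters. The ETS core was present in 26 member promoters, or 35.6%, against 8.86% of all 32851 mouse promoters and 11.6% of those of protein-coding genes. The NRF1 core was present in 7, or 9.59%, against 1.75% of all promoters and 2.35% of protein-coding ones. The YY1 core was present in 8, or 11.0%, against 1.40% and 1.83%. At least 1 of the 3 was present in 36 of 73 member promoters, or 49.3%, against 11.4% of all and 14.8% of protein-coding ones. Member promoters also held more CG pairs, with a median of 21 against 7 in all and 13 in protein-coding ones. A match describes these letters only and is not evidence of a bound factor.

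For 6 genes a stretch before the start site is shown, with matches to the 3 cores in capitals and positions counted back from the start, the last base before it being -1. Mrpl12 and Mrpl9 had the lowest knockout-minus-wild-type differences among the members, the Mrpl22 stretch holds both an NRF1 and an ETS core, those of Mrpl17 and Mrpl9 hold the NRF1 core, and those of Mrpl52 and Mrps22 hold the ETS core. The 300-base promoter of Mrpl17 also has an ETS core, outside the stretch shown. The Mrpl9 match is a palindrome, so that the core reads on both strands. Where the annotation places a transcript over the stretch, 30 bases are given, and otherwise 100.
Mrpl9, plus strand, chr3:94443298-94443327: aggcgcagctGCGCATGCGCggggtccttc
Mrpl22, plus strand, chr11:58171611-58171640: CCGGAAGccggcctcggactGCGCATGCGt
Mrpl12, plus strand, chr11:120484537-120484636: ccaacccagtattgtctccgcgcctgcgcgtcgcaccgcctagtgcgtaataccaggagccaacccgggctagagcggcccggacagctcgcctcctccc
Mrpl17, minus strand, chr7:105811088-105811187: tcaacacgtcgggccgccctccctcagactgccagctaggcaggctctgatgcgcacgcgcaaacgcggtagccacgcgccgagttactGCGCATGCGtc
Mrpl52, plus strand, chr14:54426809-54426908: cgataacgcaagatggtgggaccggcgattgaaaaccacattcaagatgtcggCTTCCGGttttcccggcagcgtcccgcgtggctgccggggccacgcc
Mrps22, minus strand, chr9:98601680-98601779: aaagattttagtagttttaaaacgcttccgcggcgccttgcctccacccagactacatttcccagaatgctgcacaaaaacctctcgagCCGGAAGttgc

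A position feature that the selection did not use was also more frequent among the members, though most lacked it. In 25 of the 73 promoters, or 34.3%, the start of another protein-coding gene lay within 1000 bases upstream on the opposite strand, against 7.94% of all promoters. Mrpl2 counts there with more than 1 promoter, each with the same partner. Among these head-to-head partners were Mrpl46 with Mrps11, a large and a small subunit gene, Mrps12 with the mitochondrial seryl-tRNA synthetase gene Sars2, and Mrpl43 with Twnk, the gene for the mitochondrial DNA helicase. The 76 genes were spread over 17 chromosomes, with 11 on chromosome 11 and 8 on chromosome 17.

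In wild type CD8+ T cells most of the mitochondrial ribosome was readily measured. Of the 110 member probes 97, or 88.2%, passed detection, against 43.9% of all probes, and 96 of the 97 were detected on all 8 arrays. Signals below are the deposited intensities, in arbitrary units, and since probes differ in how brightly they report a transcript, no gene is ranked against another. The mean wild type signal of tested member probes ran from 140.8 for a probe of Mrpl51 to 7894 for Mrps24, with a median of 1025. The coefficient of variation over the 4 wild type arrays had a median of 9.42% across these probes, against 6.67% across all tested probes.

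Some members illustrate the wild type values, the first 4 of them chosen after their values were seen. Mrps24 read 7894 ± 500.0, Mrpl33 6978 ± 653.3, Mrpl13 4944 ± 501.6 and Mrps33 4792 ± 469.3 at their brightest probes (SD, n = 4 arrays each). Mrpl12, a protein of the flexible stalk that recruits translation factors and a reported partner of the mitochondrial RNA polymerase, read 2443 ± 243.2. Mrpl10 and Mrpl11, which form the base of that stalk, read 2741 ± 201.6 and 563.6 ± 76.6. Mrps12, at the decoding centre, read 3134 ± 435.3, and Mrps22 and Mrps34, in which human mutations impair mitochondrial translation, read 811.7 ± 97.8 and 1876 ± 69.9. All of these were detected on every array.

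There were 6 genes with no tested probe. Mrpl19, Mrpl21, Mrpl32, Mrpl45, Mrps14 and Mrps36 were detected on 0 of 8 arrays, with wild type means no higher than 126.4, close to the array medians. This gives no level for these genes, since each rests on 1 probe, or on 2 for Mrpl45, the protein that tethers the ribosome to the inner membrane. The other 6 untested probes belong to Mrpl1, Mrpl13, Mrpl48, Mrps10 and Mrps31, genes with other probes that passed. The nearest to the limit were probes of Mrpl1 and Mrpl13, detected on 1 of 8 and 2 of 8 arrays. On the inside was the Mrpl51 probe at 140.8, detected on 5 of 8. Mrpl41 and Mrpl44 were not analysed here.

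Between genotypes the mitochondrial ribosomal protein transcripts differed little, and most values leaned slightly lower in the knockout. No member passed limma's adjusted p of 0.05, with 0 of 97 probes called higher and 0 lower, while 0.843% of all 11270 tested probes and, counting a gene with any called probe, 1.13% of all 7759 tested genes were called in either direction. The lowest adjusted p was 0.128, at Mrpl9. The median log2 difference, knockout minus wild type, was -0.08 over the 97 probes, a 1.06-fold lower level, against -0.0068 over all tested probes. Below 0 lay 79 of the 97 member probes, or 81.4%, against 51.7% of all tested probes. All differences ran from -0.32 to 0.16.

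At an unadjusted limma p under 0.05, 9 member probes were lower, or 9.28%, against a background of 6.39%, and 0 were higher, against 6.62%. The groups did not overlap, with all knockout arrays below all wild type arrays, in 11 member probes, or 11.3%, against 4.21% of tested probes, and in the opposite direction in 0, against 3.91%. At the brightest probe of each gene both lower counts were 6 of 70, or 8.57%, against 5.68% of tested genes by p and 3.91% by overlap. The SD within groups had a median of 0.117 for member probes and 0.157 for all tested probes, so these shares are not like for like. The count of 9 was 4 without wild type replicate 2 and 13 with replicate 3 of that group left out, and was 29 with arrays scaled to the median of all probes and 15 without background correction. With that median scaling all tested probes had a median of -0.08 and the members -0.17. The 95% interval of the difference lay within 0.5 of 0 for 67 of the 70 genes at the brightest probe, so larger differences were outside the interval for these.

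**Figure D1:**
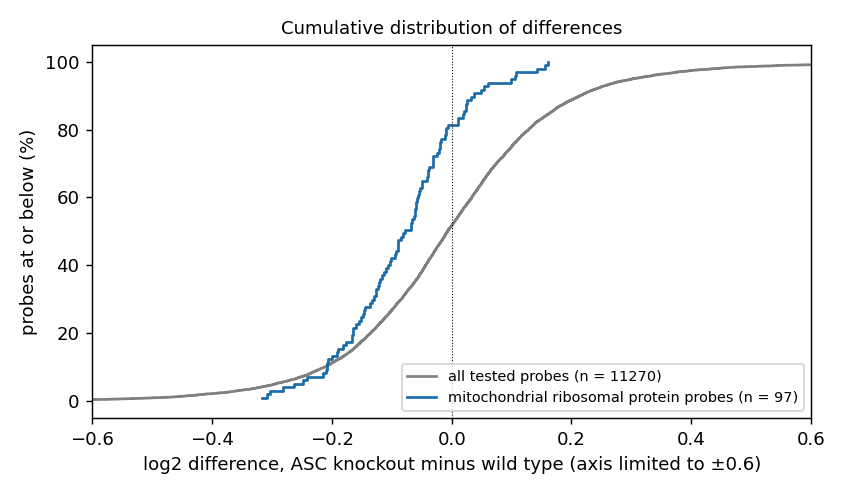
Cumulative share of probes (vertical axis, percent) against the log2 difference between knockout and wild type (horizontal axis, limited to ±0.6) for all 11270 tested probes and for the 97 member probes. At 0 the member curve has reached 81.4% against 51.7%, the curves meet in the lower tail, and the members span -0.32 to 0.16.

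Among large subunit genes the lowest value was that of Mrpl12. Its normalized log2 level was 11.00, 11.05, 11.06 and 11.33 on the wild type arrays and 10.66, 10.80, 10.84 and 10.89 on the knockout arrays. All 4 knockout arrays lay below all wild type arrays. The difference was -0.32 ± 0.0962 (SE, n = 4 per group, limma adjusted p = 0.186), or 1.25-fold lower, with a 95% interval from -0.53 to -0.10.

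Mrpl9, a conserved protein with a bacterial counterpart, followed closely. Its log2 level was 9.79, 9.72, 9.68 and 9.83 in wild type and 9.49, 9.54, 9.44 and 9.32 in the knockout. These groups also did not overlap. The difference was -0.31 ± 0.0808 (SE, n = 4 per group, limma adjusted p = 0.128), with a 95% interval from -0.49 to -0.13. Other fits called a member. Without background correction Mrpl9 passed at -0.27 (limma adjusted p = 0.0333). The authors' own value table gave the same, but it holds those uncorrected values centred per probe and is not separate support. With a variance trend both Mrpl9 and Mrpl12 passed (limma adjusted p = 0.0460 each).

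Mrpl28, another conserved large subunit protein, read 11.56, 11.49, 11.55 and 11.48 in wild type and 11.34, 11.42, 11.30 and 11.31 in the knockout. The groups did not overlap, at a difference of -0.18 ± 0.0719 (SE, n = 4 per group, limma adjusted p = 0.332). Mrpl53, found in mitochondria and not in bacteria, read 10.12, 9.92, 10.06 and 9.93 against 9.58, 9.87, 9.66 and 10.06. Here knockout replicate 4 sat among the wild type arrays, and the difference was -0.21 ± 0.114 (SE, n = 4 per group).

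Other large subunit members with larger differences were Mrpl51 at -0.21 ± 0.122, Mrpl52 at -0.19 ± 0.136 and Mrpl14 at -0.17 ± 0.101 (SE, n = 4 per group), with overlapping groups in all 3. Leaving out 1 array at a time moved them over -0.28 to -0.12, -0.29 to -0.12 and -0.24 to -0.11. The Mrpl51 value was -0.08 without background correction, and the other 2 tested Mrpl51 probes were at -0.0095 and -0.02. The stalk base genes Mrpl10 and Mrpl11 were at -0.13 ± 0.0759 and -0.13 ± 0.0912. A second, dimmer Mrpl10 probe was at -0.21 ± 0.0747, without overlap of the groups. Mrpl23, near the exit of the peptide tunnel, is the only member within 20 Mb of Pycard on chromosome 7 and was at -0.01 ± 0.0821. Mrpl58, a peptidyl-tRNA hydrolase built into the large subunit, was at -0.15 ± 0.0831.

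At the other end, Mrpl57 and Mrpl20, named after their values were seen, were at 0.16 ± 0.120 and 0.16 ± 0.104 (SE, n = 4 per group). Mrpl20 read 10.69, 10.64, 10.45 and 10.41 in wild type and 10.58, 10.91, 10.59 and 10.71 in the knockout. The groups overlapped, and leaving out 1 array at a time gave 0.08 to 0.20 for Mrpl20 and 0.07 to 0.27 for Mrpl57. Over the 43 large subunit genes the median was -0.09 at the brightest probe, with 36 below 0, and differences ran from -0.32 to 0.16.

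**Figure D2:**
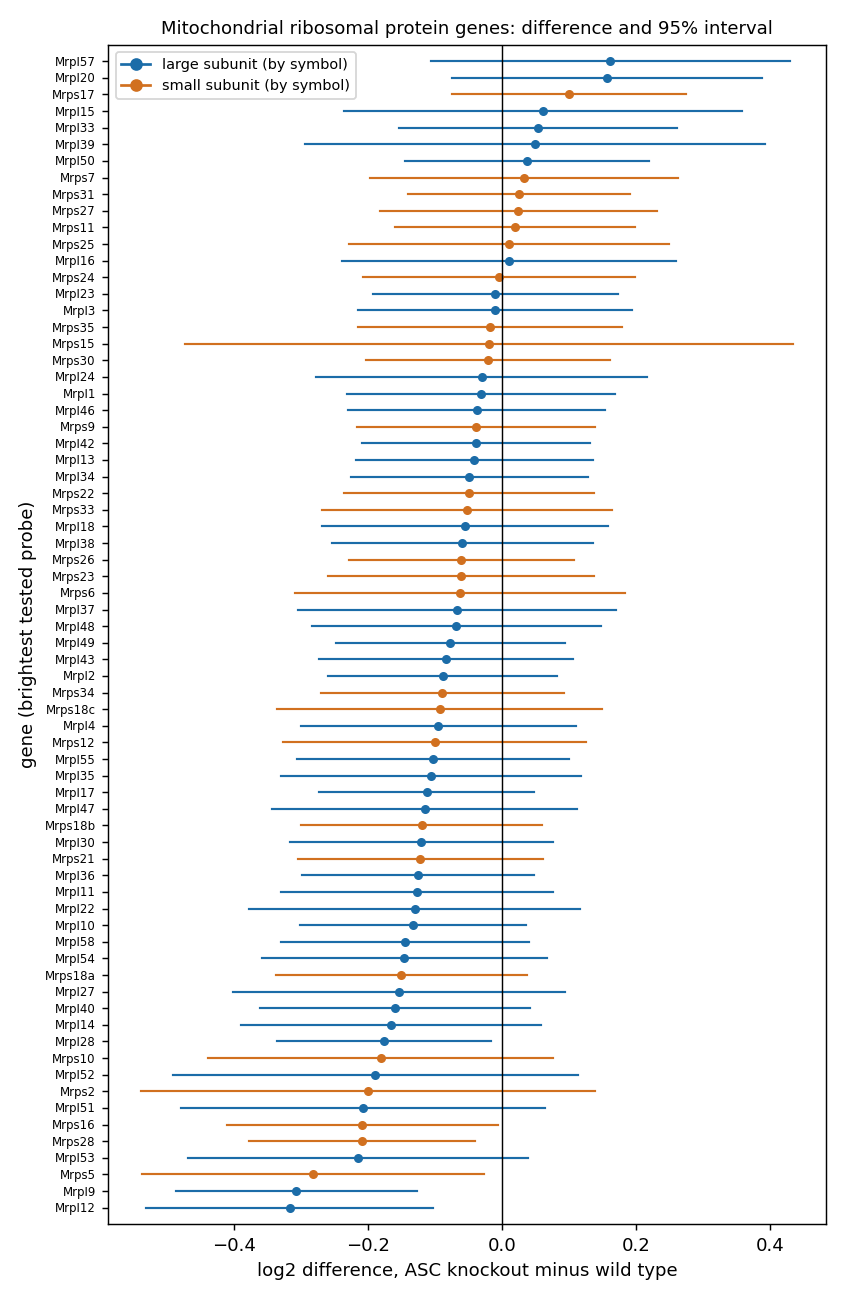
Log2 difference between knockout and wild type (horizontal axis) with its 95% interval for each of the 70 tested genes at the brightest probe, sorted, with large subunit genes in blue and small subunit genes in orange. Large and small subunit genes are mixed along the order, 57 of 70 points lie below 0, and most intervals cross 0.

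Among small subunit genes Mrps5, whose bacterial counterpart lines the entrance for messenger RNA, had the lowest value. Its brightest probe read 8.55, 8.58, 8.30 and 8.47 on wild type arrays and 8.20, 7.97, 8.13 and 8.47 on knockout arrays. Knockout replicate 4 reached the wild type range, and the difference was -0.28 ± 0.115 (SE, n = 4 per group, limma adjusted p = 0.331). A dimmer Mrps5 probe read 7.60, 7.73, 7.78 and 7.68 against 7.47, 7.35, 7.51 and 7.47. There the groups did not overlap, at -0.25 ± 0.0784 (SE, n = 4 per group, limma adjusted p = 0.208).

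Mrps28 read 9.74, 9.85, 9.70 and 9.80 in wild type and 9.58, 9.61, 9.47 and 9.59 in the knockout. The groups did not overlap, and the difference was -0.21 ± 0.0761 (SE, n = 4 per group, limma adjusted p = 0.270). Mrps16, whose human counterpart is a mitochondrial disease gene, read 11.41, 11.29, 11.26 and 11.36 against 11.15, 11.19, 11.22 and 10.91. Its groups did not overlap either, at -0.21 ± 0.0907 (SE, n = 4 per group, limma adjusted p = 0.364).

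**Figure D3:**
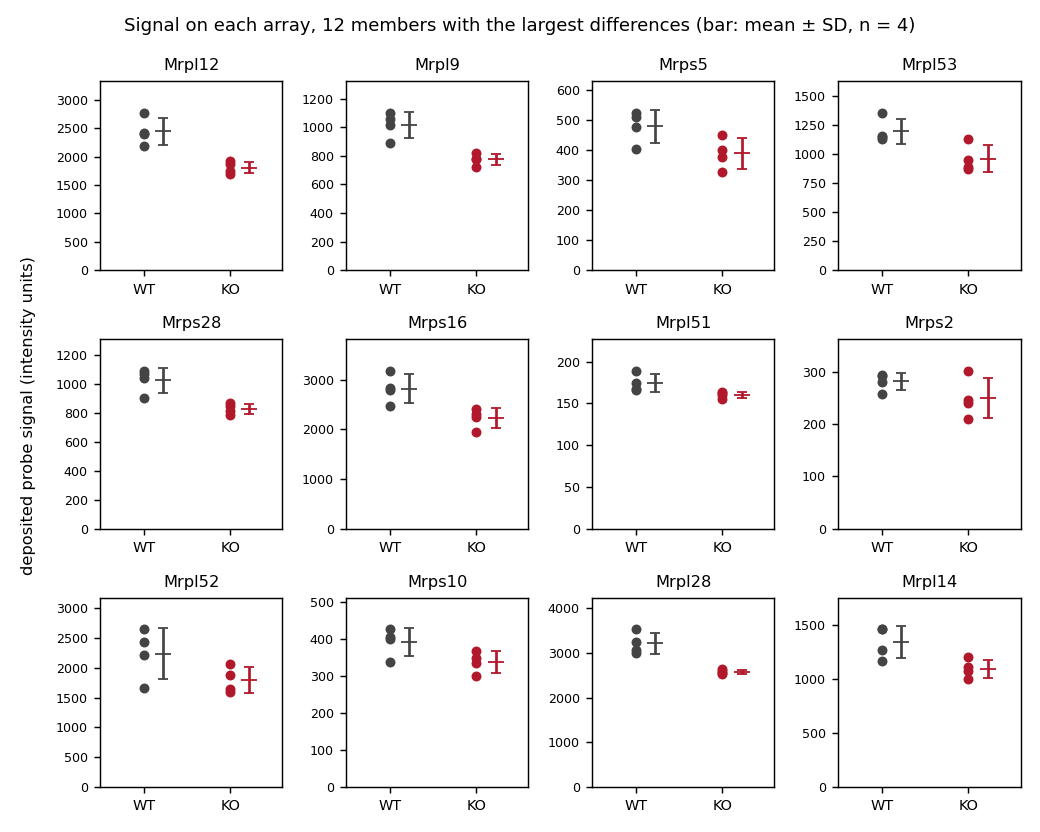
Deposited probe signal (vertical axis, intensity units from 0, not normalized) on each of the 4 wild type (WT, grey) and 4 knockout (KO, red) arrays for the 12 members with the largest differences, with the mean ± SD beside the points. The Mrpl12 and Mrpl9 points do not overlap between groups, and those of Mrpl52 and Mrps10 do.

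Mrps2 was at -0.20 ± 0.152 and Mrps10 at -0.18 ± 0.116 (SE, n = 4 per group), both with overlapping groups. When 1 array at a time was left out, the Mrps2 value ran from -0.34 to -0.05 and the Mrps10 value from -0.24 to -0.09. Mrps12 was at -0.10 ± 0.102, Mrps18b, one of several S18 relatives, at -0.12 ± 0.0809, Mrps34 at -0.09 ± 0.0816 and Mrps22 at -0.05 ± 0.0839. Mrps15 was the least certain, at -0.02 ± 0.204, with a 95% interval from -0.47 to 0.43. Its wild type arrays alone read between 7.85 and 8.70.

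Over the 27 small subunit genes the median was -0.06, with 21 below 0, and differences ran from -0.28 to 0.10, the highest being Mrps17, named after its value was seen. Leaving out wild type replicate 1 moved this median to -0.04, and leaving out replicate 3 of the same group moved it to -0.09. The large subunit median lay -0.03 from the small subunit median on the log2 scale. Across arrays the gap between the subunit medians, each gene taken against its own mean, was -0.02, 0.02, 0.02 and -0.01 in wild type and -0.02, 0.01, 0.03 and -0.05 in the knockout. The groups overlapped completely, so no difference between the subunits was seen beyond the spread of the arrays.

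Some symbols do not match the place of the protein. Mrps30 and Mrps18a are named for the small subunit but sit in the large subunit in structures of the mammalian ribosome, and Mrps36 is now placed in the oxoglutarate dehydrogenase complex. Mrps30 was at -0.02 ± 0.0815 and Mrps18a at -0.15 ± 0.0841 (SE, n = 4 per group). Sorted by structure, 38 of 45 large and 19 of 25 small subunit genes were below 0, and both medians stayed at the values above.

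Where a gene had several tested probes they could be set against each other. Of 21 such genes, 15 had all probes on the same side of 0 and 6 did not. The widest spread was at Mrps25, whose 3 probes were at -0.30 ± 0.124, 0.01 ± 0.107 and 0.11 ± 0.103 (SE, n = 4 per group), the brightest being the second. Gene counts and medians took Mrps25 by its brightest probe alone, so its side of 0 there depends on the probe. Among genes picked after their values were seen, the 4 Mrpl49 probes lay between -0.19 and -0.07, and the 2 Mrps11 probes were both at 0.02.

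The lean toward lower values was not the same on every array. The median over the 70 genes, each taken relative to its own mean over the 8 arrays, was 0.08, 0.05, -0.05 and 0.07 on wild type arrays 1 to 4 and -0.07, 0.04, -0.09 and -0.05 on knockout arrays 1 to 4. Wild type replicate 3 lay with the knockout arrays and knockout replicate 2 with the wild type arrays, so the groups overlapped. Wild type arrays averaged 0.04 ± 0.0589 and knockout arrays -0.04 ± 0.0562 (SD, n = 4 arrays each). Without wild type replicate 3 the median difference over the member probes was -0.12, more than 1.5 times that over all arrays, and without knockout replicate 2 it was -0.11.

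Array brightness was lower in the knockout on average, but the groups overlapped. Wild type replicate 3, the dimmest of its group, had a mean signal of 518.5, below that of knockout replicate 1 at 520.8. The wild type arrays had a mean signal over all probes of 553.7 ± 27.5 and the knockout arrays one of 512.4 ± 9.56 (SD, n = 4 arrays each). Before normalization the median signal of tested member probes was 1025 ± 84.5 against 880.8 ± 31.4. The part of this in the member values was not tested. By quartiles of brightness, all tested probes had medians between -0.0097 and -0.0048, while the 58 members in the brightest quartile had a median of -0.07, with 52 below 0, the 19 in the next -0.10 and the 15 in the second -0.09. The 5 in the dimmest had a median of -0.0095.

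**Figure D4:**
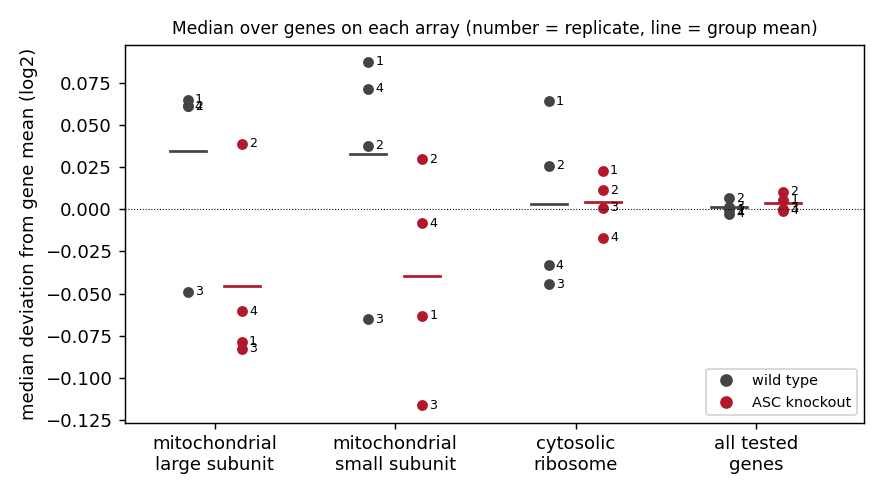
Median deviation from each gene's mean over the 8 arrays (vertical axis, log2) on each wild type (grey) and knockout (red) array for the 43 large and 27 small mitochondrial subunit genes, 54 cytosolic ribosomal protein genes and all 7759 tested genes, with replicate numbers and group means. In both mitochondrial subunits wild type replicate 3 and knockout replicate 2 stand on the side of the other group, and the cytosolic genes show no such separation of group means.

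The cytosolic ribosome, whose proteins are made for the main protein synthesis of the cell, served as the comparison. Of its 54 tested genes 27 were below 0 at the brightest probe and 0 were called, with a median of -0.00065 and a range from -0.21 to 0.47. The 70 mitochondrial ribosomal protein genes had 57 below 0 and a median of -0.07, and all 7759 tested genes had 49.9% below 0. The difference between the 2 ribosomes was not tested.

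Genes that act with the mitochondrial ribosome had 0 called members in all lists, against 1.13% of all tested genes. Of 19 tested assembly and ribosomal RNA modification factors, 12 were below 0, with a median of -0.04. The largest difference was that of Mtg1, a GTPase of large subunit assembly, at -0.67 ± 0.149 (SE, n = 4 per group, limma adjusted p = 0.0821). The wild type signal was 230.8 ± 24.7 and the knockout signal 178.6 ± 15.7 (SD, n = 4 arrays each), and the gene lies within 20 Mb of Pycard. Of 16 translation factors and membrane insertion genes, 13 were below 0, with a median of -0.07. Mtif2, an initiation factor detected on 2 wild type arrays and on all 4 knockout arrays, was at 0.39 ± 0.238. Tufm, the elongation factor that delivers aminoacyl-tRNA, was at -0.25 ± 0.0778 (limma adjusted p = 0.205). It was named after its value was seen and also lies within 20 Mb of Pycard.

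Of 13 mitochondrial aminoacyl-tRNA synthetase and amidotransferase genes, 7 were below 0, with a median of -0.04. Gatb, an amidotransferase subunit that completes glutaminyl-tRNA, was at -0.39 ± 0.144 (SE, n = 4 per group, limma adjusted p = 0.279). In the other direction Iars2, the isoleucyl-tRNA synthetase gene, named after its value was seen, was at 0.29 ± 0.101 (limma adjusted p = 0.255). Of 10 transcription and RNA processing genes, 5 were below 0, with a median of 0.01, and Mtpap, the mitochondrial poly(A) polymerase, was at 0.11 ± 0.0813. Of 7 nuclear regulators, 3 were below 0, with a median of 0.0048. The NRF1 gene was at 0.16 ± 0.103, and Myc, detected on 1 wild type array and 3 knockout arrays, at 0.28 ± 0.137. Of 6 tested ribosomal proteins listed for having other names, 5 were below 0, with a median of -0.03. That list includes the members Mrpl57 and Mrpl58, given above, and Mrpl57 had its largest difference. Dap3, Chchd1, Ptcd3 and Gadd45gip1 were at -0.02, -0.02, -0.03 and -0.06, the last detected on 1 wild type array and 3 knockout arrays.

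Members with and without a promoter match were set side by side. Over the 25 tested genes with an ETS core the median difference was -0.09, with 22 below 0, and over the 37 without it -0.06, with 28 below 0. The 6 genes with an NRF1 core had a median of -0.13 and the 56 without it -0.07. The 8 genes with a YY1 core had a median of -0.05 and the 54 without it -0.08. These groups were not tested against each other.

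Among the listed CD8 T cell markers, the Cd3 genes and Cd2 also mark other T cells. The 6 listed markers on the array summed to 72531 to 85163 in wild type and 69077 to 70917 in the knockout as deposited signals, which are not normalized. In all lists, probes that were not detected still add background to such sums. The undetected Cd8a probe, for one, had a wild type mean of 125.8. After normalization the 5 tested CD8 T cell markers had a median log2 difference of -0.03, from -0.05 for Cd8b1 to 0.13 for Cd2, with 0 called. Summed deposited signals of myeloid markers were 1132 to 1460 in wild type and 1115 to 2116 in the knockout over 5 of 7 genes on the array, and the 3 tested ones, none of them called, were S100a9 at 1.08 ± 0.329, S100a8 at 0.83 ± 0.320 and Lyz2 at -0.21 ± 0.189 (SE, n = 4 per group). Of those 5, Itgam was detected on 0 of 8 and Cd14 on 1 of 8 arrays. NK cell markers summed to 729.2 to 789.7 in wild type and 768.5 to 994.0 in the knockout over 3 of 4 genes, with Ncr1 detected on 0 of 8 arrays. The 2 tested, neither of them called, were Klre1 at 0.49 ± 0.185, detected on every array, and Klrb1c at 0.04 ± 0.288 (SE, n = 4 per group). The B cell sum was 555.1 to 607.4 and 563.3 to 644.1 over 4 of 5 genes, with Cd79a and Ms4a1 on 0 of 8 arrays. Cd79b, the 1 tested B cell marker, was detected on every array and was at 0.41 ± 0.230 (SE, n = 4 per group), not called. The erythroid and platelet sum was 521.5 to 618.3 and 546.7 to 708.4 over 4 of 5, with Alas2, Pf4 and Ppbp on 0 of 8 and Hba-a1, the 1 tested member, at a log2 difference of 0.97 (limma adjusted p = 0.196), with a signal of 185.6 ± 32.5 in wild type against 252.4 ± 66.3 (SD, n = 4 arrays each). The stromal and endothelial sum was 579.6 to 600.2 and 568.4 to 617.3 over 4 of 4, with Col1a1 and Cdh5 on 0 of 8. Pecam1, the 1 tested gene of that list, was detected on every array and was at 0.22 ± 0.0803 (SE, n = 4 per group), not called. CD4 T cell markers summed to 286.5 to 307.7 and 334.7 to 362.8, with Cd4 on 1 of 8 arrays, and Foxp3, the regulatory T cell factor, rose, with a log2 difference of 1.09 ± 0.138 (SE, limma adjusted p = 0.00576). Their part in the member values was not tested, and in bulk samples fewer cells of a type and less RNA per cell cannot be told apart.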

How the data were processed

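RNA of 8 CD8+ T cell samples was purified on Qiagen columns, DNase treated and amplified to biotinylated cRNA, per the labels' protocols. GenomeStudio is named without a version, per the submitters' processing notes. The deposited probe intensity of each array is not normalized, per the file headers, and a deposited detection p-value stands beside it. The authors' deposited value table holds log2 values that match quantile-normalized, uncorrected log2 signals centred on each probe's median within 0.00059. Scale and centring were found from the values, the direction follows the signal, and its column medians ran from -0.00045 to 0.00053.

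Intensities were corrected with limma's nec (offset 16, background from detection p-values), quantile-normalized and log2 transformed. limma's lmFit and eBayes were fitted to 11270 probes, with Benjamini-Hochberg adjustment over all of them and a threshold of 0.05. A gene was represented by its brightest tested probe. Probe symbols came from the platform annotation, and all 76 member genes matched assembly GRCm38.p6, which served for names and neighbours. Promoters came from RefSeq. Named genes were Pycard, the 12 members with the largest differences, members with probes of opposite sign differing by 0.3 or more, members within 20 Mb of Pycard, 13 members of known role, and 1 gene or the called genes of each list. Members, lists and tests were chosen with earlier results of these data known. The fit was tested on simulated data. No 2 arrays held identical values, and log2 signals of arrays correlated at 0.9938 to 0.9973. Same-numbered deviations of the 2 groups correlated at -0.10 to 0.13 and different-numbered ones at -0.155 to 0.12. Of the 8 samples, 5 correlated best with their own number. The main fit took the samples as unpaired. The number of arrays limits the precision. R 4.3.3 and limma 3.58.1 were used. Alternatives changed the background, scaling, filter, value source, variance model, probes per gene, subunit assignment, replicate block and arrays used.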

Additional observations from a re-analysis of the deposited data

Results flagged for a closer look

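An array was singled out where its gap to the nearest other array of its group, divided by the range of the group, passed Dixon's 95% critical value. This was examined in 72 sets of 4 arrays and happened in 2, while chance alone would single out about 3.6. The median over large subunit genes was -0.05 on wild type replicate 3 and 0.06 on each of the other wild type arrays (ratio 0.967). The brightest Mrps10 probe read 7.92 on wild type replicate 3 against 8.14 to 8.17 on the others (ratio 0.889). No cause was tested.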

How the results depend on the processing

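The median member difference was below 0 in every fit run, from -0.17 with median scaling over all probes to -0.06. With that scaling, which moved the median of all tested probes to -0.08, the medians were -0.17 for member probes, -0.19 for large and -0.17 for small subunit genes. With median scaling over detected probes the member median was -0.09. Members called lower numbered 1 without background correction and 1 in the authors' value table, which holds the same uncorrected values. They numbered 2 with a variance trend and 0 in the other fits. No fit called a member higher.

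Over the whole table, probes called higher and lower numbered 49 and 46. They numbered 104 and 82 with an offset of 50, 108 and 89 with normexp and that same offset, 121 and 103 without background correction or in the authors' value table, 150 and 114 with a variance trend, 31 and 31 without a detection filter, and 29 and 22 with the replicate number as a block. The block left the member median at -0.08 with 0 called. Median scaling over all probes gave 33 and 67, so 33.0% of calls were higher in place of 51.6%. Leaving out 1 array gave 15 to 41 higher and 17 to 40 lower.

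Leaving out 1 array moved the member median between -0.12 and -0.06, members below 0 between 71 and 84, and the gap between subunits between -0.04 and -0.02, with 0 members called. It turned the sign of 4 named values near 0, with ranges of -0.0594 to 0.0274 for Mrpl23, -0.1758 to 0.107 for Mrps15, -0.0529 to 0.0255 for Mrps30 and -0.0825 to 0.0695 for the brightest Mrps25 probe. That Mrps25 probe also turned to -0.0684 with median scaling over all probes and to -0.0064 with array weights. In the fits that called them, Mrpl9 was at -0.27 without background correction and in the authors' value table, and Mrpl9 and Mrpl12 at -0.31 and -0.32 with a variance trend. Counts and medians describe 8 arrays, and dim probes such as those of Mrpl51 had standard errors up to 0.208.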
